A study of Mus musculus with 5 samples.

Results

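The cells described here are the absorptive enterocytes of the small intestine in the sham-operated and the ureter-obstructed library of a mouse single-cell RNA study. A barcode was counted as an enterocyte when it held 500 or more unique molecular identifiers (UMIs) in 250 or more genes, no more than 20% of them mitochondrial, when Fabp1, Fabp2, Apoa1 and Anpep together made up at least 0.5% of its UMIs, and when Muc2, Zg16, Tff3, Fcgbp, Chga and Gcg together stayed below that sum. The cells were thus selected on the measured levels of these genes. In all, 431 of 8447 kept cells met this rule, 112 of 3501 after sham surgery and 319 of 4946 after unilateral ureteral obstruction (UUO). Both libraries came from small intestine of wild type male mice aged 8 to 10 weeks. In the UUO mice the left ureter had been tied and cut 3 days before, and in the sham mice it had been exposed and handled but not tied. Libraries were made on the BD Rhapsody platform, which tags the RNA of single cells in microwells. The labels call both libraries sorted group 3 innate lymphoid cells (ILC3s), so the enterocytes are cells outside the sorted type. A digestion of pulmonary artery tissue is also described in the labels, which does not match the organ. Neither the stretch of intestine taken nor the number of mice pooled in a library is stated in the labels. Each condition is 1 library, so no test between conditions was possible, and the mouse, the library and the obstruction cannot be told apart.

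Enterocytes line the intestinal villus, break down food with enzymes anchored in their brush border, and carry sugars, amino acids, bile acids and fat into the body. Fat is bound inside the cell by fatty acid-binding proteins, rebuilt into triglyceride and sent out on apolipoproteins as chylomicrons. Their programme varies along the gut, with fat and drug handling strongest in the proximal part and bile acid recovery in the ileum, and they answer the ILC3 cytokine IL-22 with antimicrobial proteins.

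3 members of the fatty acid-binding protein family carry much of what follows. Fabp1 (liver-type) and Fabp2 (intestinal-type) are among the genes that chose the cells, and Fabp6 (the ileal bile acid-binding protein) was the most abundant gene among those at least 2-fold lower after UUO. Their promoters are shown because enterocyte genes are known to be read under HNF4, HNF1 and GATA factors. Each sequence is the 250 bases before the gene's start in RefSeq (GRCm38.p6), 5′ to 3′ on the gene's strand. Fabp1 lies at chr6:71199629-71199878 on the plus strand, Fabp2 at chr3:122894822-122895071 on the plus strand and Fabp6 at chr11:43601563-43601812 on the minus strand. Capitals mark a match to 1 of 4 motifs on either strand, and a match on the other strand shows the reverse complement. The core bound by HNF4, a nuclear receptor of the gut and liver, was searched as CAAAGT. For HNF1, a homeodomain factor of the same organs, the core site was GTTAAT. For the zinc finger factors of the GATA family the letters searched were AGATAA. The TATA box, which positions the start of transcription in many strongly expressed genes, was searched as TATAAA. No 2 of these motifs overlapped in the sequences shown.
Fabp1: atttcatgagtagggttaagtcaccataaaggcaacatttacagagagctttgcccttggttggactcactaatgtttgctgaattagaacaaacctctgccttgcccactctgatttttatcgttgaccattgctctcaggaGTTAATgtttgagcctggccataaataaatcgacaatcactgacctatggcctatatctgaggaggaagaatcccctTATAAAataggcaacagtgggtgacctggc
Fabp2: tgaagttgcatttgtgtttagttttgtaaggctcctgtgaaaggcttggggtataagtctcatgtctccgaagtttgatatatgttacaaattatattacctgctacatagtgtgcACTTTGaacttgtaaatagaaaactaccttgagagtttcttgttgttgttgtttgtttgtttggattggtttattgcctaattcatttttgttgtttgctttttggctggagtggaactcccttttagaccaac
Fabp6: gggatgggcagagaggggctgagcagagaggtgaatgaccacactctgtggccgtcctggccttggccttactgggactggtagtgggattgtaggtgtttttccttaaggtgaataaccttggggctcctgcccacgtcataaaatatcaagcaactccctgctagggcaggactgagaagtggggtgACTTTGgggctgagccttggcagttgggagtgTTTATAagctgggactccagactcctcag
The Fabp1 window held the HNF1 core site, starting 107 bases before the gene's start, and a TATA box 30 bases before it. An HNF4 core stood 134 bases before the start of Fabp2 and 61 bases before that of Fabp6, which also held TATA box letters at 29 bases. The matches in Fabp2 and Fabp6 were on the other strand, those in Fabp1 on the gene's strand. Among 32851 mouse promoters of this length, 12.6% held the HNF4 core, 6.43% the HNF1 core site, 9.99% the GATA site and 12.4% the TATA box. The GATA letters were in none of the 3 windows. These matches describe the letters only.

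The libraries shared barcodes to a degree that touches every result below. 158 barcodes occurred in both intestinal libraries, whereas each intestinal library shared 22 to 27 with each of the 2 wild type kidney libraries. Of the enterocytes, 57 of 112 after sham surgery (50.9%) and 64 of 319 after UUO (20.1%) carried such a barcode, against 2.91 and 1.98% of the other kept cells. These cells held 63.2% of the enterocyte UMIs after sham surgery and 44.7% after UUO. 55 of the 158 barcodes were enterocytes in both libraries, and in all 55 the copy in one library was far shallower than in the other. In 38 of them the deeper copy was the UUO one, with 20559 to 33029 UMIs, and the sham copy held 506 to 793, a median of 2.29% of it. In the other 17 the sham copy was deeper, with 8841 to 26837 UMIs, and the UUO copy held 533 to 951, a median of 3.73%. For all 55 shallow copies, the closest profile among the 55 deeper copies was the one with the same barcode. A median of 91.3% of the genes seen in a shallow copy were found in its own deeper copy, against 82.8% in the deeper copies of other barcodes. Whether these pairs are the same cells was not tested beyond these values. The counts of every gene list and the main genes are therefore given for all enterocytes and again without every barcode found in both libraries, which leaves 55 sham and 255 UUO enterocytes.

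**Figure D1:**
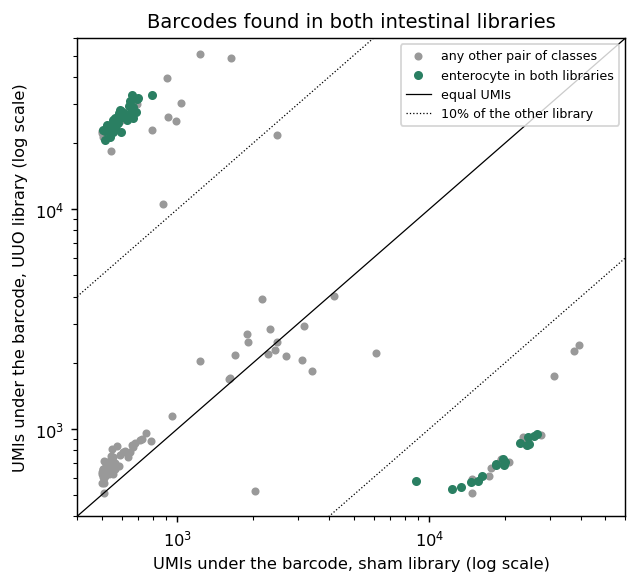
UMIs under each barcode found in both intestinal libraries, sham on the x axis and UUO on the y axis, both on log scales; green points are enterocytes in both libraries, grey points any other pair of classes, the solid line equal depth and the dotted lines 10% of the other library. All 55 green points lie beyond the dotted lines, 38 at upper left and 17 at lower right.

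Enterocytes made up 3.20% of kept cells after sham surgery (exact binomial 95% interval 2.64 to 3.84%) and 6.45% after UUO (5.78 to 7.17%). Without the shared barcodes the shares were 1.64% (1.24 to 2.13%) and 5.32% (4.70 to 6.0%). All intervals here and below cover counting error only, and the shares depend on how many epithelial cells passed a sort meant for lymphocytes. Enterocyte depth was 554737 UMIs after sham surgery and 2410404 after UUO (204223 and 1333504 without shared barcodes). The median enterocyte held 1624 and 2618 UMIs, or 2739 and 2480 without shared barcodes. After sham surgery, the 10 deepest enterocytes held 41.0% of all enterocyte UMIs, against 13.1% after UUO, so a level summed over sham enterocytes rests on few cells. The median mitochondrial share of enterocytes was 8.40% after sham surgery and 8.19% after UUO, against 3.19 and 3.86% in the other kept cells.

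The 4 genes of the rule formed a continuum above the threshold, not a separate block at it. The sham enterocyte nearest the threshold had a sum of 0.549% and the cell just below it 0.483%, and in the UUO library the corresponding values were 0.500 and 0.493%. The median enterocyte had 2.05% after sham surgery and 2.91% after UUO, and no cell reached 10%. In the other kept cells the median sum was 0.0335 and 0.115%, with 99th percentiles of 0.214 and 0.392%, which is the level that enterocyte RNA outside enterocytes reached. Of the UUO cells, 373 lay between 0.25 and 0.5%, against 21 sham cells. Those 373 had a median of 0.942% UMIs in 16 lymphoid genes. The 49 UUO enterocytes between 0.5 and 1% had 0.620% lymphoid UMIs and 0.289% in 10 other enterocyte genes, whereas the 3 bands above them had 0.122 to 0.237% and 1.10 to 1.8%. The lowest UUO band thus held cells with more lymphoid and less enterocyte RNA than the bands above it, and it bears on the results only as far as other choices of cells show. Of the 58 named genes at least 2-fold apart, 44 stayed so at a threshold of 1%, 46 without cells of at least 0.2% lymphoid UMIs and 55 when cells were chosen by 10 other enterocyte genes.

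**Figure D2:**
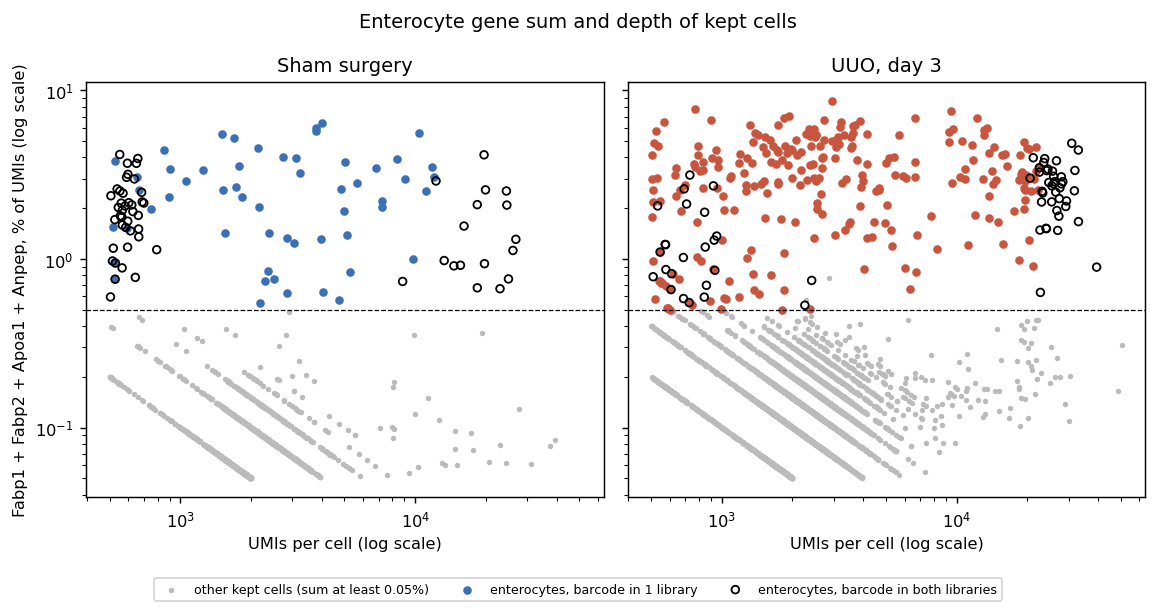
Summed share of Fabp1, Fabp2, Apoa1 and Anpep against the UMIs of each kept cell, both on log scales, for the sham library (left) and the UUO library (right). Filled points are enterocytes with a barcode in 1 library, open circles enterocytes with a barcode in both, grey points other kept cells with a sum of at least 0.05%, secretory cells included, and the dashed line marks 0.5%; open circles gather at the shallow and the deep end of each library.

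Of the 5 enterocyte markers, Fabp2, Apoa1 and Anpep belong to the rule and say nothing further about the label. The other 2 were Alpi, at 748 against 1388 CPM in enterocytes and 15.5 and 60.2 CPM in other kept cells, and Vil1, at 1719.7 against 1713 CPM and 42.4 and 77.7 CPM. All 10 pan-epithelial markers, such as Epcam and Krt8, were present in the enterocytes and in the other kept cells of both libraries. They summed to 12375 and 10167 CPM in enterocytes, against 1039 and 1437 CPM in the other kept cells. Markers of tuft cells were at 0 for 6 of 6 genes in sham enterocytes and for 3 of 6 (Il25, Pou2f3, Gnat3) after UUO. Enteroendocrine markers, of which Chga and Gcg belong to the rule, summed to 171 and 14.9 CPM, against 96.1 and 14.6 CPM in other kept cells. The T cell genes Cd3e, Cd3d and Cd8a and their companions summed to 139 and 146 CPM, with Cd8b1 at 0 in both libraries and Cd3d at 0 after sham surgery, and B cell genes to 5.41 and 2.07 CPM. CPM here is the count of a gene scaled to counts per 1000000 UMIs of all enterocytes of the library. ILC3 markers, among them Il22, summed to 2243 CPM in sham and 1701 CPM in UUO enterocytes (3085 and 1978 CPM without shared barcodes). In the other kept cells they summed to 13749 and 12680 CPM. No ILC3 marker was at 0 in enterocytes, so lymphoid RNA was present at a lower level in both libraries. Pan-leukocyte markers summed to 2439 and 1743 CPM in enterocytes, against 9638 and 8962 CPM in the other kept cells. Paneth cell markers summed to 1265 and 1812 CPM, below the 6182 and 7776 CPM of the other kept cells, of which single ones reached 57.7 and 52.1% of UMIs. In the median cell these markers stood higher in enterocytes, at 0.145 and 0.128% against 0.0859 and 0.0936%. In single UUO enterocytes they reached 30.8% of UMIs, in a cell with a shared barcode, against at most 0.945% in sham enterocytes. Without shared barcodes the highest shares were 0.387% in sham and 16.5% in UUO enterocytes. The Paneth sums were then 1498 and 1413 CPM, so the sham library had the higher one. Goblet markers summed to 707 and 238 CPM, against 520 and 296 CPM in the other kept cells. Of these 8 markers, Muc2, Zg16, Tff3 and Fcgbp belong to the rule, which capped them, so the sum says nothing further about the label.

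Across the transcriptome the enterocytes of the 2 libraries were alike for most genes measured. Of 3741 genes that reached 50 UMIs over the enterocytes of the pair of libraries and 50 CPM on the side where they were more abundant, 80 were at least 2-fold higher after UUO (2.14%) and 78 at least 2-fold lower (2.09%), which is 4.22% in either direction. The median log2 ratio of UUO over sham was -0.075, and 90% of genes lay between -0.74 and 0.75. Without the shared barcodes 3762 genes could be compared, and 240 were higher (6.38%) and 135 lower (3.59%), or 9.97% in either direction. The median was then -0.010. 55 genes were at least 2-fold higher in both forms of the comparison, which is 68.8% of the 80 and 22.9% of the 240. 34 were lower in both, 43.6% of the 78 and 25.2% of the 135. Of the 58 genes at least 2-fold apart that the naming rule picked, all 58 kept their direction without the shared barcodes and 46 stayed 2-fold apart. When, in addition, every cell was weighted alike, 57 kept their direction and 35 stayed 2-fold apart. Below, a log2 ratio is given with its exact conditional binomial 95% interval, and a gene is called higher or lower only when it was at least 2-fold apart. Every count of list members below stands beside the shares over all genes, 2.14% higher and 2.09% lower. Without shared barcodes these shares were 6.38 and 3.59%. A list count near these shares is not a result about the list.

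**Figure D3:**
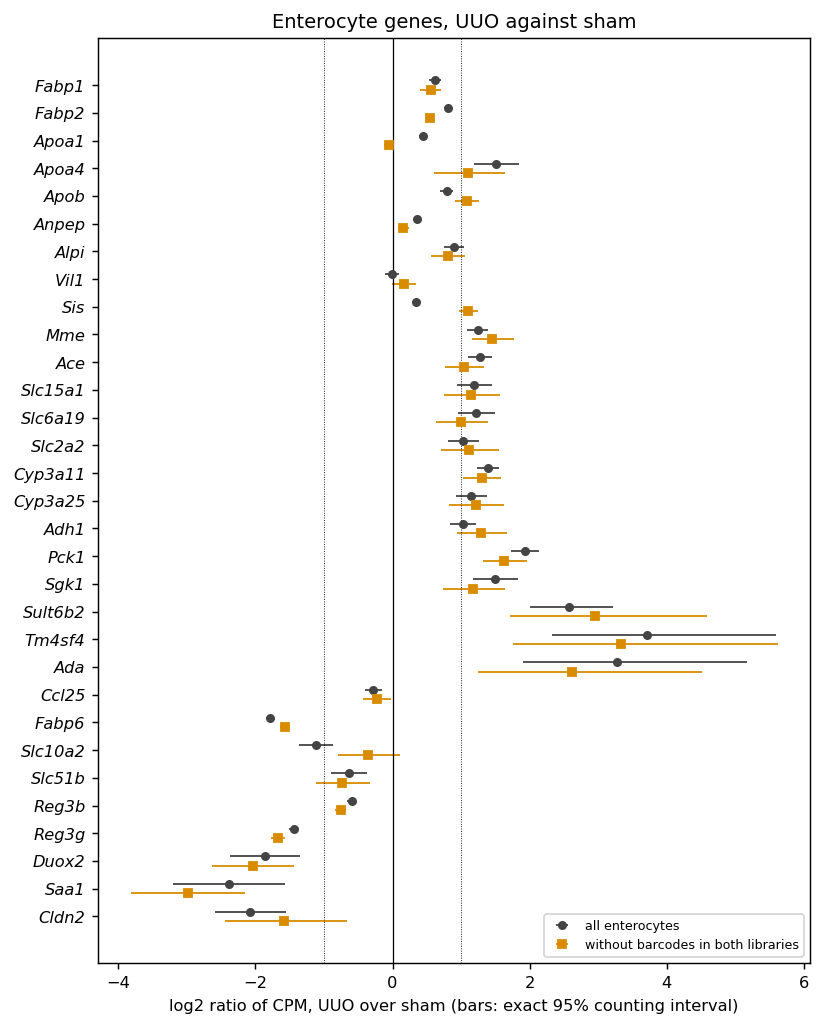
Log2 ratio of CPM, UUO over sham, for genes described in the text, for all enterocytes (dark circles) and without barcodes found in both libraries (orange squares); bars are exact 95% counting intervals and dotted lines mark 2-fold. Fabp6, Reg3g, Duox2, Saa1 and Cldn2 lie beyond 2-fold lower in both forms, and Pck1, Cyp3a11, Sgk1, Sult6b2, Tm4sf4 and Ada beyond 2-fold higher.

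Among bile acid genes of the ileal enterocyte, Fabp6 and Slc10a2 were lower after UUO and the other 3 measured were not 2-fold apart. Fabp6 (chromosome 11, 43596040 to 43601562 in GRCm38), which binds bile acids inside the cell, stood at 8528 CPM (interval 8287 to 8775) in the sham library and 2461 CPM (2398 to 2524) in the UUO library, a log2 ratio of -1.79 (-1.85 to -1.74). Without shared barcodes it stood at 10474 against 3531 CPM (-1.57 (-1.64 to -1.49)), and -1.0 when every cell was also weighted alike. Slc10a2, the apical sodium-dependent bile acid importer, stood at 364 CPM (interval 316 to 418) in the sham library and 168 CPM (152 to 185) in the UUO library (-1.12 (-1.36 to -0.87)). Its ratio shrank to -0.35 (-0.79 to 0.11) without shared barcodes, and the interval then included 0. Of 5 measured genes of this list 2 were lower and 0 higher, with a median of -0.67. Without shared barcodes 1 of 6 was lower and 1 higher, the hormone Fgf15 at 1.04 on 5 sham UMIs, with a median of -0.27. The basolateral exporter subunits Slc51a and Slc51b had ratios of -0.39 and -0.64, and the bile acid receptor gene Nr1h4 -0.67, all short of 2-fold, and -0.14, -0.73 and -0.18 without shared barcodes.

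Fabp6 was unevenly spread over the enterocytes of both libraries. The top 3 cells held 34.3% of its UMIs in the sham and 23.1% in the UUO library. In single sham enterocytes its share of UMIs ran from 0 to 5.93% with a median of 0, and in UUO enterocytes from 0 to 4.68% with a median of 0.0122%. A Fabp6 UMI was seen in 48.2% of sham and 63.3% of UUO enterocytes. After each cell was thinned to 1000 UMIs, which left out 51 sham and 76 UUO enterocytes, the shares were 50.8% (interval 37.7 to 63.9%) and 42.0% (35.7 to 48.5%). In the other kept cells, with median depths of 2040 and 2168.5 UMIs, the thinned shares were 9.51 and 8.55%, which serve here as the background of free RNA. The thinned shares of enterocytes lay above that background in both libraries, and their intervals overlapped between libraries. Without shared barcodes they were 47.7% (32.5 to 63.3%) and 47.8% (40.7 to 54.9%).

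Antimicrobial and IL-22 target genes contained some of the lowest ratios. Reg3g (chromosome 6, 78466269 to 78468874), a secreted lectin that kills Gram-positive bacteria, stood at 4101 CPM (interval 3934 to 4273) in the sham library and 1511 CPM (1462 to 1561) in the UUO library, a log2 ratio of -1.44 (-1.52 to -1.36). Without shared barcodes it stood at 5533 against 1741 CPM (-1.67 (-1.77 to -1.56)), and at -1.81 with cells also weighted alike. Its neighbour Reg3b, a lectin of the same family, stood at 5201 against 3440.1 CPM (-0.60 (-0.66 to -0.53)), short of 2-fold in the same direction. As the sequences of the Reg3 genes are similar, reads may have been split between them. Saa1, an acute-phase apolipoprotein, stood at 54.1 against 10.4 CPM (-2.38 (-3.21 to -1.57)) on 30 and 25 UMIs in 6 and 8 cells. Duox2, the oxidase that makes hydrogen peroxide at the epithelial surface, stood at 112 against 30.7 CPM (-1.86 (-2.37 to -1.35)), in 15 and 19 cells. Cldn2, a pore-forming claudin of tight junctions, stood at 115 against 27.4 CPM (-2.08 (-2.59 to -1.56)). All 4 lower genes of the list (Reg3g, Saa1, Duox2, Cldn2) were also lower without shared barcodes, at -1.67, -2.98, -2.04 and -1.59.

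The list was not lower as a whole. Of its 15 measured members 4 were lower and 0 higher in both forms of the comparison, with a median of -0.32 (-0.31 without shared barcodes). Pigr, the receptor that carries immunoglobulin A into the gut lumen, had a ratio of 0.16. The membrane mucins Muc3 and Muc13 had 0.47 and -0.32. Lypd8, which holds flagellated bacteria off the epithelium, had -0.79, and 0.075 without shared barcodes. In single cells, Reg3g ran from 0 to 4.4% of UMIs in sham enterocytes and from 0 to 2.82% after UUO, with medians of 0.0315 and 0.0110%. The thinned share of cells with a Reg3g UMI was 60.7% (47.3 to 72.9%) in sham enterocytes and 37.4% (31.3 to 43.9%) in UUO enterocytes, and 58.9 and 56.4% before thinning. Without shared barcodes the thinned shares were 68.2% (52.4 to 81.4%) and 35.3% (28.7 to 42.4%). In other kept cells the thinned shares were 11.3 and 7.67%. The single most Reg3g-rich sham cell held 19.7% of the sham Reg3g UMIs. The lower summed share of ILC3 markers in UUO enterocytes, given above, moved with these genes, and its part in the result was not tested.

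**Figure D4:**
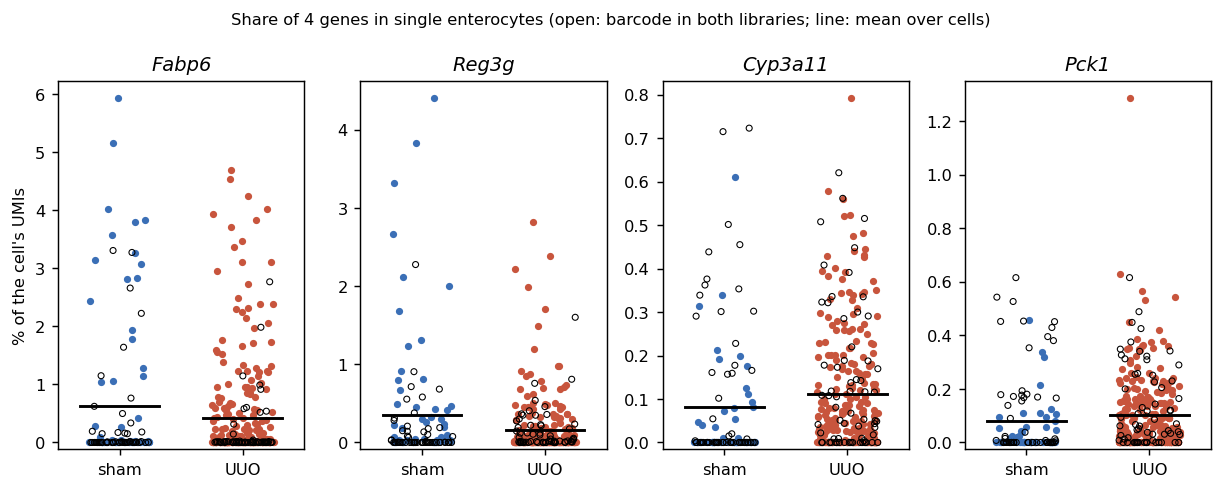
Share of each enterocyte's UMIs taken by Fabp6, Reg3g, Cyp3a11 and Pck1, one point per cell, for the sham library (blue, 112 cells) and the UUO library (red, 319 cells); open circles carry a barcode found in both libraries and black lines are means over cells. Most cells hold little or no Fabp6 and Reg3g, and a minority in each library reaches several percent.

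Genes of fat uptake and chylomicron assembly stood slightly above the median of all genes. Of 19 measured, 1 was at least 2-fold higher and 0 lower, beside 2.14 and 2.09% of all genes. That gene was Apoa4, an apolipoprotein of chylomicrons, at 151 CPM (interval 121 to 187) in the sham library and 430.2 CPM (404 to 457) in the UUO library (1.51 (1.18 to 1.84)), and 1.10 (0.60 to 1.64) without shared barcodes. Without shared barcodes 2 of 19 were higher and 0 lower, beside 6.38 and 3.59% of all genes. The list's median was 0.44 (0.39 without shared barcodes). That 0.44 is the value of Apoa1, a gene that chose the cells, so the median is description only. Apob, the structural protein of the chylomicron, stood at 1909 against 3305 CPM (0.79 (0.70 to 0.89)), and reached 1.09 without shared barcodes. Mttp, which loads lipid onto it, had a ratio of 0.36, and Dgat1, which completes triglyceride synthesis, -0.24 (0.59 and -0.59 without shared barcodes). Dgat1 was more abundant in the other kept cells, at 3246 and 2474 CPM.

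The genes that chose the cells are given as description only. Fabp1 stood at 2071 against 3174 CPM (log2 ratio 0.62, 0.56 without shared barcodes) and Fabp2 at 5979 against 10470.0 CPM (0.81 and 0.55). Apoa1, the main apolipoprotein of high-density lipoprotein, stood at 6079 against 8241 CPM (0.44, and -0.058 without shared barcodes). Anpep, the brush border aminopeptidase N, stood at 6419 against 8231 CPM (0.36 and 0.16). These genes were also found in other kept cells, Fabp2 at 122 and 459.5 CPM and Apoa1 at 142 and 411 CPM, with the higher level in the library that held more enterocytes.

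Brush border digestive enzymes leaned towards UUO, with 3 of 17 measured genes higher, 0 lower and a median of 0.75 (4 of 18, 0 and 0.61 without shared barcodes). Mme, the peptidase neprilysin, stood at 721 against 1705 CPM (1.24 (1.09 to 1.39)), and at 1.46 without shared barcodes. With every cell of both libraries weighted alike it turned to -0.21. Ace, which removes dipeptides from peptide ends, stood at 546 against 1318 CPM (1.27 (1.10 to 1.45), 1.04 without shared barcodes). Enpp7, the alkaline sphingomyelinase that digests dietary sphingomyelin, stood at 186 against 464 CPM (1.32 (1.03 to 1.63)), and fell short of 2-fold without shared barcodes at 0.82. The alkaline phosphatase Alpi had 0.89 (0.81). The disaccharidase sucrase-isomaltase, Sis, had 0.34, which became 1.10 without shared barcodes and 0.042 with cells also weighted alike. The sister enzyme Mgam had 0.14 and the metalloprotease Mep1b 0.030.

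Nutrient transporters held the largest share of higher genes among the lists with at least 10 measured genes. Of 15 genes measured for sugar, peptide and amino acid transport, 6 were higher after UUO and 0 lower, with a median of 0.79, and 7, 0 and 0.74 without shared barcodes. Slc15a1, the peptide importer PEPT1, stood at 243 CPM (interval 204 to 288) in the sham library and 556 CPM (527 to 587) in the UUO library (1.19 (0.94 to 1.46)). Slc6a19, the main importer of neutral amino acids, stood at 222 against 516 CPM (1.22 (0.95 to 1.5)). Slc2a2, the glucose transporter GLUT2, stood at 339 against 694 CPM (1.03 (0.82 to 1.26)). Slc15a1 and Slc2a2 stayed 2-fold apart without shared barcodes (1.14 and 1.11), and Slc6a19 stood at 1.0. The other 3 were the basic amino acid exporter subunit Slc7a7 (1.10), the amino acid transporter family member Slc7a15 (1.40) and the proton-coupled amino acid transporter Slc36a1 (1.77). Slc5a1, the sodium-glucose importer SGLT1 and an abundant transporter here, had 0.51 at 2389 against 3406 CPM (0.55 without shared barcodes).

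Among 13 measured genes of ion, iron and calcium transport 0 were higher and 1 was lower, and without shared barcodes 3 were higher and 0 lower. The lower one was Slc34a2, a sodium-phosphate cotransporter, at 395 against 193 CPM (-1.03 (-1.27 to -0.79)), which stood at -0.81 without shared barcodes. The sodium pump subunit Atp1b1 had 0.60 and was among the 3 higher genes without shared barcodes at 1.15, and so was the calcium-binding S100g (0.88 and 1.18, on 6 sham UMIs). The ferritin chain Fth1 had 0.25 and 0.71. The list's median was 0.20 (0.41 without shared barcodes).

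Drug metabolism and retinoid genes had a list median level with that of the transporters. Of 24 measured, 5 were higher and 0 lower with a median of 0.79 (7, 0 and 0.83 without shared barcodes). Cyp3a11 (chromosome 5, 145854607 to 145879854), a cytochrome P450 that oxidises many drugs and bile acids, stood at 613 CPM (interval 549 to 682) in the sham library and 1608 CPM (1558 to 1659) in the UUO library (1.39 (1.23 to 1.56)). Without shared barcodes it stood at 573 against 1411 CPM (1.30 (1.03 to 1.58)), and at 1.04 with cells also weighted alike. Its relative Cyp3a25 stood at 335 against 742 CPM (1.15 (0.93 to 1.37)). Reads of the similar Cyp3a genes, and of the similar carboxylesterase genes Ces2a and Ces2c, may have been split between copies. Ces2a and Ces2c had ratios of 1.03 and 1.43. Adh1, an alcohol dehydrogenase that also oxidises retinol, stood at 454 against 926 CPM (1.03 (0.84 to 1.22)). Aldh1a1, which makes retinoic acid, had 0.93, and the retinol-binding protein Rbp2 0.37.

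In single cells, Cyp3a11 reached from 0 to 0.723% of UMIs in sham and from 0 to 0.792% in UUO enterocytes, with medians of 0 and 0.0502%. A Cyp3a11 UMI was seen in 38.4% of sham and 66.1% of UUO enterocytes, and after thinning in 27.9% (17.1 to 40.8%) and 53.9% (47.4 to 60.3%). Without shared barcodes the thinned shares were 29.5 and 47.8%, with intervals of 16.8 to 45.2% and 40.7 to 54.9% that overlapped. In other kept cells the thinned shares were 1.36 and 5.70%. 3 sham cells held 54.4% of all sham Cyp3a11 UMIs, and the top 3 UUO cells 12.9%.

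For fatty acid oxidation and ketogenesis, 2 of 14 measured genes were higher and 0 lower, with a median of 0.59 (5 of 13, 0 and 0.73 without shared barcodes). Pck1 (chromosome 2, 173153073 to 173159274), phosphoenolpyruvate carboxykinase, a gate of glucose and glyceride synthesis that the list includes as a fasting gene, stood at 382 CPM (interval 332 to 437) in the sham library and 1459 CPM (1411 to 1508) in the UUO library (1.93 (1.73 to 2.14)). Without shared barcodes it stood at 406 against 1259 CPM (1.63 (1.31 to 1.97)), and at 1.12 with cells also weighted alike. The thinned share of enterocytes with a Pck1 UMI was 19.7% (10.6 to 31.8%) in the sham library and 50.6% (44.2 to 57.1%) in the UUO library (43.8 and 63.9% unthinned), against 1.05 and 4.90% of other kept cells. Without shared barcodes the thinned shares were 20.5% (9.80 to 35.3%) and 41.3% (34.4 to 48.4%), with intervals that overlapped slightly. The top 3 cells held 38.2% of all sham Pck1 UMIs and 11.8% of all UUO ones. Pdk4, the kinase that shuts glucose out of oxidation, stood at 59.5 against 175 CPM (1.56 (1.05 to 2.12)). The acyl-CoA dehydrogenases Acadm and Acadl had 0.10 and 0.79, and the mitochondrial Hadha 0.20. G6pc, the glucose-6-phosphatase that completes glucose release and belongs to none of the lists, went the other way at 84.7 against 25.7 CPM (-1.72 (-2.29 to -1.14)), on 7 sham UMIs without shared barcodes (-0.87 (-2.12 to 0.58)).

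Among 12 measured cholesterol genes, 5 were lower and 1 higher, with a median of -0.65. The lower ones included genes of cholesterol synthesis and its control: the squalene epoxidase Sqle (-1.79 (-2.40 to -1.18)), the demethylase Cyp51 (-1.29 (-1.75 to -0.82)), the sterol-sensing transcription factor Srebf2 (-1.08 (-1.46 to -0.69)) and the synthase Hmgcs1 (-1.02 (-1.34 to -0.71)). The higher one was Abca1, which exports cholesterol, at 27.0 against 92.9 CPM (1.78 (1.03 to 2.64)). The intestinal cholesterol importer Npc1l1 and the exporter subunits Abcg5 and Abcg8 had 0.23, 0.39 and 0.38. Without shared barcodes 1 of 11 was lower, and Abca1 stayed higher at 1.66. Cyp51, Srebf2 and Hmgcs1 then stood at -0.98, -0.90 and -0.46, short of 2-fold. Sqle moved to -0.88 on 9 sham UMIs, and to 0.012 with cells also weighted alike. Srebf2 and Cyp51 stood at 198 and 173 CPM and 113 and 114 CPM in the other kept cells, and the part of RNA from outside the enterocytes in their counts was not tested.

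**Figure D5:**
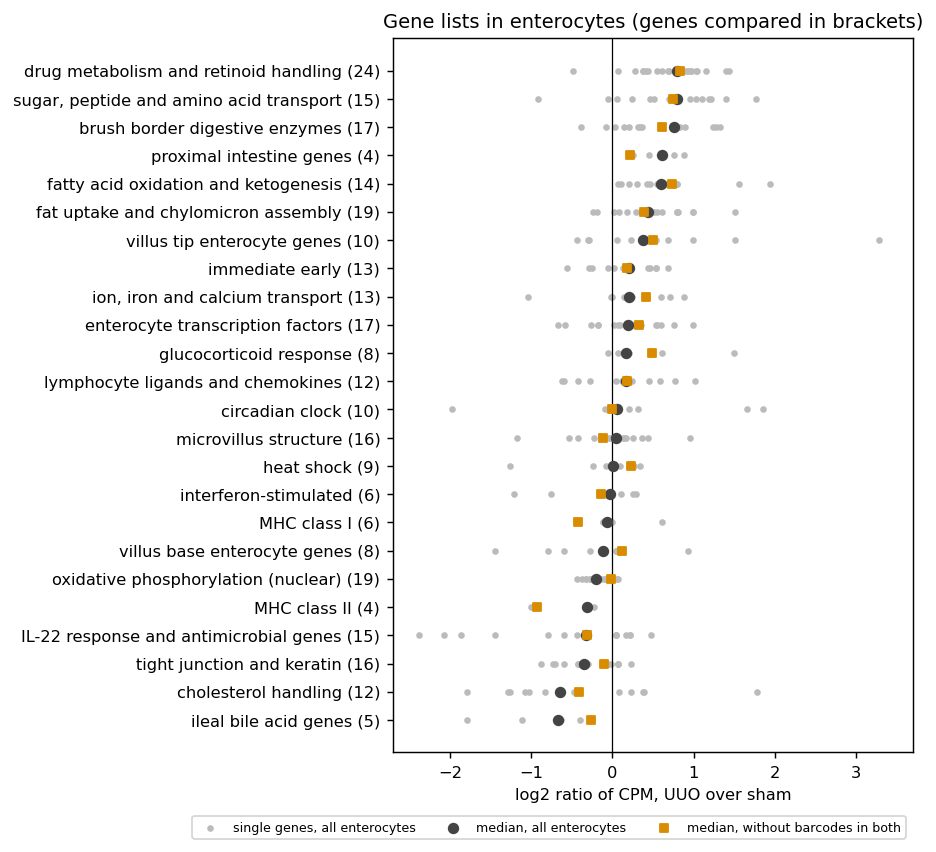
Log2 ratio of CPM, UUO over sham, for the members of 24 gene lists in enterocytes; grey points are single genes over all enterocytes, dark circles list medians over all enterocytes and orange squares list medians without barcodes found in both libraries. Drug metabolism, transport and brush border lists have the highest and cholesterol and ileal bile acid lists the lowest medians over all enterocytes.

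Lists that mark position along the gut and the villus gave few genes past 2-fold. Of 4 measured proximal genes 0 were past it, and S100g alone without shared barcodes. Lct, the lactase, had 0.76 (0.27 without shared barcodes), Gata4, a transcription factor of the proximal gut, 0.26, and Adh6a 0.45. Of 10 measured villus tip genes 2 were higher, Apoa4 and Ada (the same 2 of 12 without shared barcodes). Ada, adenosine deaminase, stood at 7.21 against 70.1 CPM (3.28 (1.90 to 5.17)) on 4 and 169 UMIs. The tip gene Krt20, a keratin of shed-ready cells, had 0.22. Of 8 measured villus base genes 1 was lower, Reg3g. Without shared barcodes 1 of 8 was lower and 1 higher, Reg1, a further secreted lectin (0.93 and 1.26). Cell cycle and crypt stem cell genes were too scarce for a comparison, with 1 of 15 measured (Pcna, -0.053).

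Genes with the highest ratios mostly had few sham UMIs. Tm4sf4, a tetraspanin-like membrane protein, was highest at 7.21 against 94.2 CPM (3.71 (2.33 to 5.60)) on 4 and 227 UMIs, followed by Ada. Sult6b2, of the sulfotransferase family, stood at 45.1 against 269.7 CPM (2.58 (2.01 to 3.22)) on 25 and 650 UMIs, and Ly6m at 23.4 against 127 CPM (2.44 (1.65 to 3.37)). Without shared barcodes these 4 stood at 3.33, 2.62, 2.95 and 1.95. The next were the acyl-CoA thioesterase Acot12 (2.36), Pck1, the bilirubin-conjugating Ugt1a1 (1.91), the proline-pathway dehydrogenase Aldh4a1 (1.87), the clock output factor Hlf (1.85), Abca1, Slc36a1, the water channel Aqp1 (1.76), Nat8f5 (1.72), the mineralocorticoid receptor Nr3c2 (1.67) and the clock output factor Tef (1.66). Aqp1 was the most deeply counted of the genes outside the lists after Sult6b2, at 70.3 against 238 CPM, and stood at 0.95 without shared barcodes.

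The lowest ratios were a mixed set, with some genes more abundant in secretory or other kept cells than in enterocytes and some not. S100a6, a calcium-binding protein, was lowest at 177 against 22.8 CPM (-2.95 (-3.46 to -2.46)). It stood at -1.71 without shared barcodes. In the 24 sham and 23 UUO secretory cells it was at 1329 and 424 CPM, and in other kept cells at 43.8 and 42.1 CPM. Acta1, skeletal muscle actin, followed at 252 against 42.7 CPM (-2.56 (-2.94 to -2.18)), and Suox, the sulfite oxidase, stood at 144 against 41.1 CPM (-1.81 (-2.25 to -1.37)). Acta1 was at 714 and 56.5 CPM in secretory cells and 16.5 and 24.1 CPM in other kept cells. Suox was at 69.1 and 33.9 CPM and at 4.99 and 4.53 CPM in these. The goblet genes Zg16 (-2.15) and Tff3 (-1.72), which the rule used, moved with their level in the other kept cells, 157 and 38.5 CPM and 106 and 61.6 CPM. Arntl (-1.98), Pds5b (-1.94), Glul (-1.82) and Emg1 (-1.72) were as abundant or more abundant in other kept cells than in sham enterocytes, at 87.4 and 63.2 CPM for Arntl and 94.8 and 95.1 CPM for Pds5b.

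Of the genes by which enterocytes address lymphocytes, Ccl25, the chemokine that draws CCR9-bearing lymphocytes to the small intestine, stood at 1235 CPM (interval 1144 to 1331) in the sham library and 1016 CPM (977 to 1057) in the UUO library (-0.28 (-0.40 to -0.16), -0.23 without shared barcodes). Its UMIs were in 66.1 and 67.4% of enterocytes, and in 54.1 and 55.6% after thinning (50 and 48.3% without shared barcodes), against 3.27 and 4.51% of other kept cells. Cxcl16, the ligand of the ILC3 receptor CXCR6, stood at 70.3 against 45.6 CPM (-0.62 (-1.16 to -0.057)). Cd274, the PD-1 ligand PD-L1, had 2 UMIs in sham and 11 in UUO enterocytes, 3.61 against 4.56 CPM, below the 37.4 and 36.3 CPM of the other kept cells, and no comparison was possible at this depth. Of 12 measured genes of the list 1 was higher, the alarmin Il33, at 28.8 against 58.5 CPM (1.02 (0.27 to 1.87)) on 16 and 141 UMIs. Without shared barcodes 2 of 13 were higher and 0 lower, Il33 on 2 sham UMIs and the butyrophilin-like Btnl4 on 6 (1.64, from 0.45). The butyrophilin-like Btnl1, which shapes gamma-delta intraepithelial lymphocytes, had 0.24, and Clec2h and Clec2e, C-type lectins with similar copies, 0.59 and 0.77.

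Of 4 measured genes of MHC class II antigen presentation 1 was lower, and 2 without shared barcodes. Cd74, the invariant chain of MHC class II, stood at 276 against 138 CPM (-1.0 (-1.28 to -0.72)), and -1.61 without shared barcodes, where H2-Ab1 also passed 2-fold (-1.10, from -0.33). Both were more abundant in the other kept cells, at 545 and 562 CPM for Cd74. Of 6 measured class I genes 0 passed 2-fold (0 of 8 without shared barcodes), with B2m at -0.092 and H2-K1 at -0.051. Among 6 interferon-stimulated genes 1 was lower, Oasl2, at 119 against 51.4 CPM (-1.21 (-1.65 to -0.76)). Without shared barcodes 3 of 7 were lower and 0 higher, namely Oasl2 at -2.06, Isg15 at -1.23 on 14 sham UMIs and Bst2 at -1.08 on 21.

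Structure and housekeeping lists held few genes past 2-fold over all enterocytes, and several more without shared barcodes. The actin bundler Vil1 stood at 1719.7 against 1713 CPM (-0.0053 (-0.11 to 0.10)), and 1 of 16 microvillus genes was lower, the adhesion molecule Tmigd1 at 672 against 297 CPM (-1.18 (-1.36 to -0.99), -0.83 without shared barcodes). Without shared barcodes 0 of these 16 were lower and 1 was higher, the scaffold protein Pdzk1 on 5 sham UMIs (1.31). Of 16 tight junction and keratin genes 0 passed 2-fold, with a median of -0.35. Without shared barcodes 2 were higher and 2 lower (median -0.10), the lower ones the keratin Krt18 (-0.72 and -1.19) and the junction protein Cgn (-0.70 and -1.17), and the higher ones Cldn23 (1.29) and, on 4 sham UMIs, Tjp1 (1.52). Of 17 enterocyte transcription factors 0 passed 2-fold (median 0.19), and without shared barcodes 2 of 15 were higher, Hnf4g at 1.40 on 18 sham UMIs and Gata6 at 1.07 on 13. For nuclear oxidative phosphorylation 0 of 19 genes passed 2-fold in either form, with medians of -0.20 and -0.013, and for immediate early genes 0 of 13 and 0 of 14, with medians of 0.21 and 0.18. Of 9 heat shock genes Hspa1b was lower (-1.26 (-1.75 to -0.75)), and without shared barcodes Hspa1b was lower (-1.67) and Hspd1 higher on 4 sham UMIs (1.94). Of 8 glucocorticoid response genes 1 was higher, the kinase Sgk1, at 157 CPM (interval 126 to 193) in the sham library and 443 CPM (416 to 470.0) in the UUO library (1.5 (1.18 to 1.83), 1.17 without shared barcodes). Without shared barcodes 2 of 8 were higher, Sgk1 and the glucocorticoid receptor gene Nr3c1 (1.37, from 0.20). Of 10 clock genes Tef and Hlf were higher and Arntl lower, and Per1 and Nr1d1 had 0.065 and 0.20. Without shared barcodes 2 of 8 were higher, Tef and Hlf, and Arntl was below the filter. The genes of this and the preceding paragraphs that passed 2-fold only without shared barcodes were picked after their values had been seen.

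Since Fabp6 split the enterocytes of both libraries, ranges of Fabp6 were set after its values had been seen, to read the other genes at like Fabp6. At least 1% Fabp6 was found in 24 of 112 sham enterocytes (21.4%, 14.2 to 30.2%) and 45 of 319 UUO enterocytes (14.1%, 10.5 to 18.4%). Without shared barcodes it was 18 of 55 (32.7%, 20.7 to 46.7%) and 42 of 255 (16.5%, 12.1 to 21.6%), with intervals that overlapped slightly. These are ranges of a continuous value, with 4 sham and 20 UUO cells between 0.8 and 1.25%, and the median lymphoid share in the upper range was 0.231 and 0.173%. Cells under 0.1% Fabp6 made up 75 of 112 sham and 207 of 319 UUO enterocytes. Their median depth was 688 and 3080 UMIs, against 4934.5 and 2515 in cells of at least 1%. The latter held 171744 of 554737 sham and 204048 of 2410404 UUO enterocyte UMIs, so they weigh more in the summed sham levels. Within the ranges, which themselves bound Fabp6, its log2 ratio was -0.14, -0.18 and -0.24 from lowest to highest (-0.20, 0.44 and -0.26 without shared barcodes).

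Within the cells of under 0.1% Fabp6, several genes had smaller ratios than over all enterocytes. Cyp3a11 stood at 1089 against 1921 CPM there (0.82 (0.65 to 0.99), and 0.82 (0.54 to 1.10) without shared barcodes). Pck1 stood at 659 against 1650.1 CPM (1.32 (1.12 to 1.54), and 0.99 (0.67 to 1.34)). Both ratios lay below those over all enterocytes in either form. Adh1 stood at 0.55 (0.35 to 0.75) (0.97 (0.60 to 1.37) without shared barcodes), Slc2a2 at 0.53 (0.30 to 0.77) (0.62 (0.20 to 1.08)) and Sgk1 at 1.25 (0.83 to 1.71) (0.76 (0.17 to 1.40)). Lct had 0.20 (0.039 to 0.37) over all cells of this range and -0.20 (-0.44 to 0.044) without shared barcodes, so its sign turned. Slc6a19 had 1.36 (0.96 to 1.8) (1.27 (0.66 to 1.94)), no smaller than over all enterocytes. Sult6b2 stood at 2.14 (1.54 to 2.81) (2.55 (1.31 to 4.19)). Reg3g was -0.38 (-0.54 to -0.22) in these cells, and -0.93 (-1.15 to -0.71) without shared barcodes. Reg3b turned to 0.52 (0.39 to 0.65) over all cells of this range but was -0.34 (-0.51 to -0.17) without shared barcodes.

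The range between 0.1 and 1% Fabp6 held 13 sham and 67 UUO enterocytes, and only 3 and 59 without shared barcodes. Their median depth over all cells was 664 UMIs in the sham and 2278 in the UUO library. At the sham median, 1 Fabp6 UMI was enough to reach 0.1%. The 13 sham cells held 82729 UMIs, of which the 3 without shared barcodes held 10025, so the sham levels here rest mostly on shared barcodes. Over all its cells the ratios of several genes were larger than in the cells of under 0.1%. Cyp3a11 stood at 84.6 against 572 CPM (2.76 (1.68 to 4.09)) on 7 sham UMIs, Pck1 at 96.7 against 956 CPM (3.31 (2.31 to 4.53)) on 8 and Lct at 157 against 725 CPM (2.21 (1.40 to 3.14)) on 13. Slc2a2 had 1.19 (0.29 to 2.25), whereas Adh1 had 0.10 (-0.74 to 1.02). Reg3g stood at 3650.5 against 1658 CPM (-1.14 (-1.35 to -0.93)). The 3 sham cells left without shared barcodes gave 0 UMIs of Cyp3a11 and Pck1 and allowed no comparison.

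Within the cells of at least 1% Fabp6, Reg3g and Reg3b stood at far higher levels in both libraries than in cells of low Fabp6. Reg3g stood at 9194 against 6008 CPM (-0.61 (-0.72 to -0.51), -0.75 (-0.88 to -0.62) without shared barcodes), and Reg3b at 12257 against 13129 CPM (0.10 (0.016 to 0.18), 0.30 (0.19 to 0.40)). Reg3b, with a log2 ratio below 0 over all enterocytes, had one above 0 in this range, and Reg3g had one below 0 in both. Slc10a2 stood at 943 against 1161 CPM (0.30 (0.0059 to 0.60)) in this range. Nearly all Saa1 UMIs of the sham library, 29 of 30, came from cells of this range, and 16 of 25 in the UUO library. Cyp3a11 and Pck1 were scarce in it, on 6 sham UMIs each, at 34.9 against 206 CPM (2.56 (1.32 to 4.08)) and 34.9 against 412 CPM (3.56 (2.38 to 5.05)). Over all enterocytes, Cyp3a11 and Pck1 thus had ratios above 0 in every range of Fabp6, and Reg3g below 0. Reg3b had 0.52, -0.19 (-0.39 to 0.024) and 0.10 from the lowest to the highest range. Duox2 had 0.24 (-1.86 to 3.41) on 2 sham UMIs, -1.29 (-2.14 to -0.42) and -0.73 (-1.48 to 0.011) in the same order. Without shared barcodes it had -1.43 (-2.19 to -0.68) in the highest range. The size of the ratios differed between ranges, and the part of Fabp6 in the ratios over all enterocytes was not tested further.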

How the data were processed

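Single-cell libraries of mouse small intestine were read from the deposited count matrices, which hold whole counts of UMIs for 31253 genes per barcode, as the authors deposited them. Sham intestine held 8717372 UMIs in 3621 barcodes and UUO intestine 14756545 in 5209. Per the submitters' processing notes, CASAVA 1.8, UMI-tools, Seurat and mm10 were used. These notes name no aligner, annotation or cell-calling rule, each not given in the sources used here. No barcode held fewer than 501 UMIs. Kidney libraries were used for their barcodes only.

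Counts of UMIs were summed over the enterocytes of a library and divided by their total (CPM). Levels carry exact Poisson, shares Clopper-Pearson and log2 ratios exact conditional binomial 95% intervals. A gene entered the comparison when the enterocytes of both libraries summed to 50 UMIs or more and one of them reached 50 CPM, and was called at 2-fold. The calculation was tested on simulated data. Other kept cells, neither enterocytes nor secretory cells (secretory gene sum at least 0.5% of UMIs), served as the measure of free RNA. Single ones held up to 3.31% (sham) and 2.51% (UUO) pan-epithelial UMIs, so this class may include some epithelial cells. No doublet caller was run, and leaving out cells with at least 0.2% lymphoid UMIs was tried instead. Shares of cells with a UMI were also given after thinning to 1000 UMIs.

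The named genes were Fabp1, Fabp2, Apoa1, Anpep, Alpi, Vil1, Ccl25, Cxcl16 and Cd274, the 15 highest and 15 lowest ratios, and, of each of 25 gene lists, up to 6 most abundant members and every member at least 2-fold apart. The highest and lowest ratios skip haemoglobin, sex-linked, antigen receptor, mitochondrial, predicted and ribosomal protein genes. Some genes picked by this rule are not reported here. Members and lists were chosen with earlier results of these data known. Python 3.11.15, numpy 2.4.6, scipy 1.17.1, pandas 2.3.3 and matplotlib 3.10.9 were used.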

Additional observations from a re-analysis of the deposited data

How the results depend on the processing

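No paired analysis was possible because each condition is 1 library. The enterocyte share of kept cells, 3.20% after sham surgery and 6.45% after UUO, was 1.64 and 5.32% without shared barcodes, 2.49 and 5.46% at a threshold of 1%, 1.69 and 4.39% at 2%, 2.26 and 4.65% with at most 10% mitochondrial UMIs, 1.89 and 5.56% with at least 1000 UMIs, and 1.40 and 3.94% without cells of at least 0.2% lymphoid UMIs. At a threshold of 0.25% the UUO share was 14.0%, and without the shallow copies of shared barcodes, an alternative added after seeing the data, the sham share was 2.09%. The UUO share was the higher one in all of these. The 80 genes at least 2-fold higher became 240 without shared barcodes, 232 with every cell weighted alike, 582 with no filter on low genes and 352 without shared barcodes and with cells weighted alike (also added later). The 78 lower genes became 135, 224, 1532 and 232, and 23 with at least 200 UMIs. The log2 ratio of Mme turned to -0.21 with every cell weighted alike, and the log2 ratio of Sqle to 0.016, or 0.012 without shared barcodes as well. The cause was not tested. Of the 58 named genes at least 2-fold apart, 57 or 58 kept their direction in the other alternatives, and the number still 2-fold apart was lowest with every cell weighted alike, at 23. It was 44 at a threshold of 1%, 43 at 2%, 40 at 0.25% and 57 without shallow copies. Scaling by the median ratio left 55. Depth limits the sham side: 554737 enterocyte UMIs, of which 10 cells held 41.0%.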
